A study of Mus musculus with 25 samples.

Results

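The nuclear genes for subunits of the mitochondrial respiratory chain were followed across mouse liver and liver tumors. The 55 genes were chosen by symbol, 34 of complex I (the Nduf genes), 4 of complex II (Sdh), 7 of complex III (the Uqcr genes and Cyc1) and 10 of complex IV (Cox), out of 48795 genes listed for each library. All 55 were found and all 55 passed the filter on low counts, which left 15625 genes to be tested. RNA sequencing of polyA-selected libraries from male C57BL/6J mice gave 25 samples in 5 groups. Mice of nonDEN-L-CD (3 livers) and nonDEN-L-WD (4 livers) had received no carcinogen and ate the control diet or the western diet, respectively, from weaning. Those of DEN-L-CD (4 livers) had received 25 mg/kg diethylnitrosamine (DEN, a liver carcinogen) by intraperitoneal injection at 2 weeks of age and ate the control diet. DEN-PT-WD (8 samples of peritumoral tissue) and DEN-T-WD (6 tumors) came from DEN-injected mice on the western diet. Tissue was taken at 36 weeks. Tumors of DEN-injected mice on the control diet were too small to be cut out, so a DEN-L-CD liver may hold some, and which tumor shared a mouse with which peritumoral sample is not stated.

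The respiratory chain sits in the inner mitochondrial membrane. Complex I takes electrons from NADH and complex II takes them from succinate, coenzyme Q carries them to complex III, cytochrome c carries them on to complex IV, and complex IV passes them to oxygen. Complexes I, III and IV also pump protons, and the resulting gradient drives ATP synthase. Most subunits are encoded in the nucleus, a few in the mitochondrial genome, so a working chain needs both sets of transcripts, and liver is one of the tissues richest in mitochondria.

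Each library held between 21530083 and 38074411 expected counts, the estimated number of reads per gene. Members took 0.345% to 0.541% of these counts, and the lowest count of any member in any library was 333, so counting error was small for all of them. DEN-T-WD replicate 5 stood apart from the other 5 tumors. Its 10 hepatocyte markers summed to 35080 TPM (a level corrected for gene length and library size) against 117600 to 139400 in the other tumors, and its mitochondrial-encoded subunits summed to 168300 TPM against 79550 to 101800. Counts of called genes in tumors are therefore also given without it. By summed TPM the other 5 tumors were in turn above all peritumoral samples in these markers, which ran from 49180 to 76450 there, but as mean log2 CPM the markers overlapped, at 11.64 to 11.95 in peritumoral tissue and 10.76 to 12.01, with a median of 11.85, in tumors. Among the other cell types checked, 6 bile duct markers summed to 385 to 834 TPM in tumors and 73.9 to 325 in peritumoral tissue, 10 leukocyte markers to 231 to 584 and 226 to 474.5 TPM, and 9 pancreas acinar markers to 23.0 to 1459 and 9.72 to 5923 TPM; none of these lists had a gene at 0 in every library of either group, and their part in the results was not tested. The bile duct markers overlapped as mean log2 CPM, at 1.53 to 3.00 in tumors and 1.05 to 2.39 in peritumoral tissue. Whole pieces of tissue were sequenced, so fewer cells rich in mitochondria and less RNA per cell cannot be told apart.

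In liver these genes sat at widely different levels. Ndufa4, a small subunit long counted with complex I and now often placed in complex IV, was highest at a mean of 722 TPM over the 25 libraries. Uqcrq, a small membrane subunit of complex III, followed at 476 TPM and Cox6c, a small subunit of complex IV, at 451 TPM. At the other end were Ndufs7, a core iron-sulfur subunit of complex I, at 47.4 TPM and Ndufa11, an accessory subunit, at 10.7 TPM. Sdha, which carries the flavin that oxidises succinate, stood at 213 TPM, Sdhc at 201, Sdhb at 149 and Sdhd at 146. Within one gene the level was steady: the ratio of the highest to the lowest of the 25 libraries ran from 1.29 for Ndufs8 to 2.24 for Ndufa10.

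Each complex held a similar share of the summed level in every group. Complex I made up 44.7% ± 0.11 (SD, n = 3) of member TPM in nonDEN-L-CD and 44.5% ± 0.36 (n = 6) in tumors, with the other groups between 43.6% and 44.5%. Complex II made up 7.50% ± 0.30 (n = 8) in peritumoral tissue and 7.03% ± 0.12 in tumors, against 6.78% ± 0.13 in nonDEN-L-CD livers, 7.57% ± 0.23 (n = 4) for nonDEN-L-WD and 7.18% ± 0.32 (n = 4) for DEN-L-CD. The lowest nonDEN-L-WD library, at 7.24%, was above the highest nonDEN-L-CD library, at 6.89%, whereas the highest tumor, at 7.13%, barely overlapped the lowest peritumoral sample, also at 7.13%. Group means were 16.8% to 17.5% for complex III and 30.95% to 32.0% for complex IV. Tumor replicate 5 had the lowest complex III share of the tumors, at 15.45%, and the other 5 tumors had 17.6% to 18.3%. These shares do not depend on how libraries are scaled to each other.

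**Figure D1:**
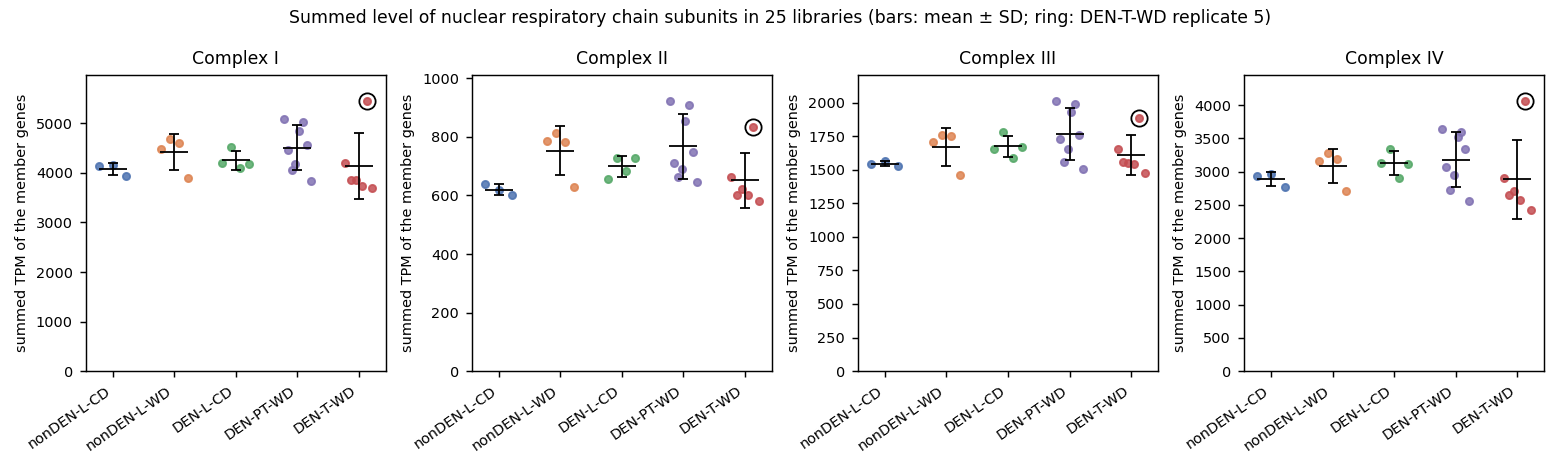
Summed TPM of the member genes of each complex (y axis, from 0) in each of the 25 libraries (points) by group (x axis), with the group mean and SD as black bars. DEN-T-WD replicate 5, ringed, lies above the other 5 tumors in all 4 complexes, at 5440 against 3689 to 4194 TPM for complex I.

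Summed over all 55 members, peritumoral tissue was at 10220 ± 1171 TPM and tumors at 9281 ± 1496 (SD, with n as above). Untreated livers were at 9134 ± 259 TPM on the control diet and 9928 ± 842 on the western diet, and DEN-L-CD livers at 9748 ± 464. Without replicate 5, tumors were at 8694 ± 460 TPM (n = 5). Peritumoral tissue spanned 8536 to 11660 TPM, which took in or overlapped the range of every other group. Complex II, at 602 to 638 TPM in nonDEN-L-CD, lay below all DEN-L-CD livers, at 656 to 729, and all peritumoral samples, at 645 to 921. Complex III was likewise at 1525 to 1562 TPM in nonDEN-L-CD and 1589 to 1782 in DEN-L-CD. No test was made on these sums.

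A look at the promoters shows sequence that some of these genes share. RefSeq windows of 300 bases on GRCm38.p6, from 250 before to 50 after a transcription start, were found for 45 of the 55 members. The motif of NRF1, a transcription factor known for driving nuclear genes of the chain, was searched on both strands and was present in 10 of the 45 members, or 22.2%, against 5.19% of all 27025 genes with a window. CCGGAAG, the core bound by ETS factors such as GABPA, was in 10 members, again 22.2%, against 9.93% of all genes. TCAAGGTCA, bound by the estrogen-related receptor alpha, was in 1 member, Sdhd, or 2.22%, against 0.466%, and TATAAA was in 4 members, 8.89%, against 15.7%. For each complex, the 150 bases just before the start of the member with the most NRF1 and ETS matches in that stretch are shown, so that the matches can be seen in place. Several members of complex I tied, and the one with the lowest p in tumors against peritumoral tissue, Ndufs6, was taken. The NRF1 and ETS matches are in capitals, none overlaps another, and each sequence reads 5′ to 3′ on the strand of its gene, here always the minus strand.
Ndufs6 (chr13:73328483-73328632): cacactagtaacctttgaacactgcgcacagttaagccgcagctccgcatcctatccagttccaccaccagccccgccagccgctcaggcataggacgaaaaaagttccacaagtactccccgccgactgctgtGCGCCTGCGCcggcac
Sdha (chr13:74350241-74350390): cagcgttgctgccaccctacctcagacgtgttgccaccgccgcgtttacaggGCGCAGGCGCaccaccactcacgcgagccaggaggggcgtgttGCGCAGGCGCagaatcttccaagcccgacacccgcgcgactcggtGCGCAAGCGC
Uqcrh (chr4:116075071-116075220): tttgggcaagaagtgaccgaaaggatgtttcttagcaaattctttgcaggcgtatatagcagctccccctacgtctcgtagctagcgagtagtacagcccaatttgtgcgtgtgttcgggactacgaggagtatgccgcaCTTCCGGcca
Cox6a1 (chr5:115348959-115349108): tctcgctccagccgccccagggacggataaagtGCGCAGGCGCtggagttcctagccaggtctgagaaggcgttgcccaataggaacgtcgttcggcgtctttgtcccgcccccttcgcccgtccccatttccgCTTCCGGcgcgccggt
Sdha held 3 NRF1 matches within the last 98 bases before its start. Starts are those of RefSeq. The gene coordinates used for the members place the 5′ end of Ndufs6 at 73328542, of Sdha at 74350280 and of Cox6a1 at 115348981. Each lies within its stretch, so a match near the start can lie inside the gene there. A match is a description and not a binding site.

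Tumors were then compared with peritumoral tissue, which asks what sets the tumor apart from the liver around it on the same diet. Transcripts of all 4 complexes were lower in tumors: 42 of the 55 members fell and none rose at an adjusted p of at most 0.05 (edgeR's quasi-likelihood test on normalized counts, adjusted over all 15625 genes), where 18.1% of all genes tested were lower by the same rule. The median log2 fold change of the members was -0.27, against 0.01 for all genes. By complex, 26 of 34 members of complex I fell (median -0.25), all 4 of complex II (median -0.37), 6 of 7 of complex III (median -0.32) and 6 of 10 of complex IV (median -0.25). The changes were small, and no member reached an absolute log2 fold change of 1, the further threshold of the study, which 7.9% of all genes passed.

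How many members were called depended on the scale. On log2(TPM + 1), tested by limma, only 7 members were lower and none higher, where 8.92% of all genes were lower, and with library totals in place of the normalization it was 18 of 55, where 12.6% were. The members' median stayed below 0 on both, at -0.15 and -0.20. The median of all genes was itself at 0.09 on the TPM scale, and the members' median less that of all genes was -0.28 on normalized counts and -0.24 on TPM. Without tumor replicate 5, 49 members fell (20.4% of all genes were lower), with a median of -0.33, and all 10 members of complex IV were then among them. On the TPM scale the count rested on that library: without it 31 members were lower and none higher (limma, 11.0% of all genes were lower), namely 20 of complex I, 3 of complex II, 4 of complex III and 4 of complex IV.

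**Figure D2:**
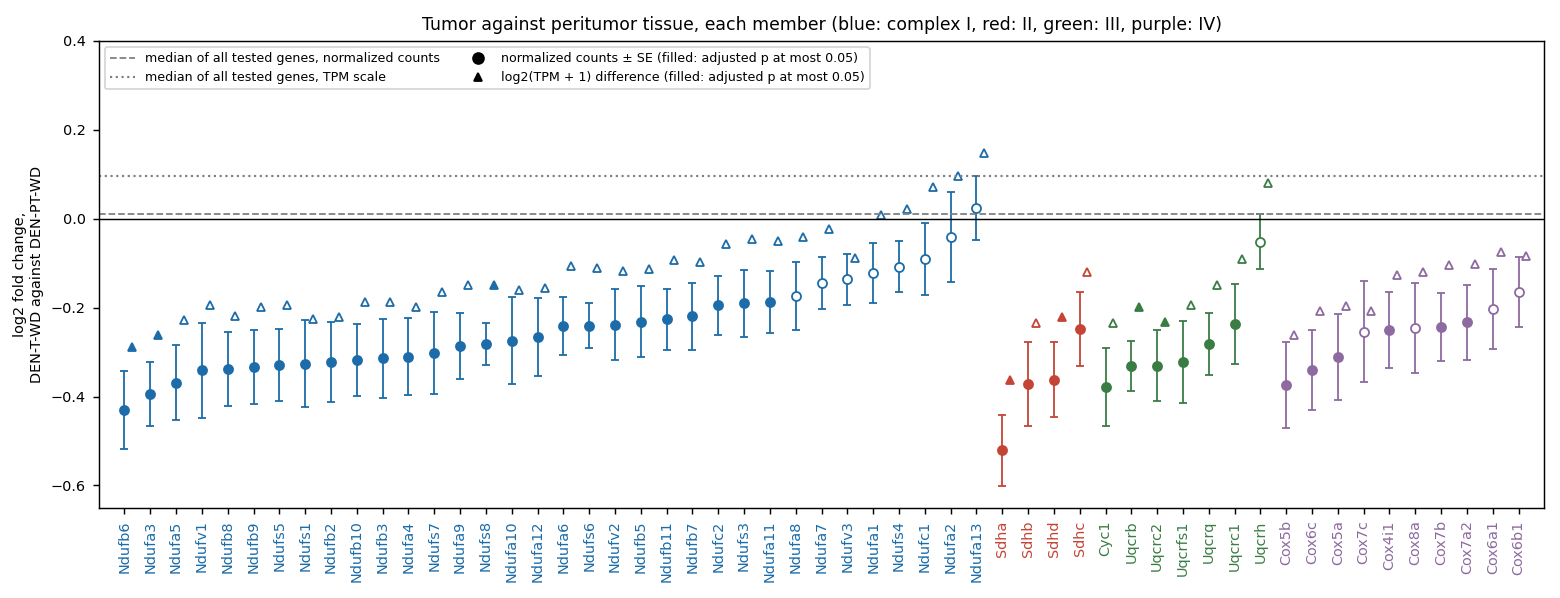
Log2 fold change of each member (x axis, grouped by complex) in tumors against peritumoral tissue (y axis), as circles with SE on normalized counts and as triangles on log2(TPM + 1), with filled symbols at an adjusted p of at most 0.05 and with the median of all tested genes dashed for the first scale and dotted for the second. Sdha is lowest on both scales, at -0.52 and -0.36, and the triangles lie above the circles for every member.

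Complex II showed the largest single difference. Sdha (chr13:74322254-74350280, GRCm38) was at 436, 408.5 and 409 normalized CPM (counts scaled to library size) in nonDEN-L-CD livers, at 494, 492, 492.5 and 464 in those of nonDEN-L-WD and at 429.6, 463, 438 and 453 in those of DEN-L-CD. In peritumoral tissue it ran from 343 through a median of 396 to 496, and in tumors from 249 through 273.5 to 330.2. All 6 tumors were below all 8 peritumoral samples, as for 5.18% of all genes tested, replicate 5 being the highest tumor. The log2 fold change was -0.52 ± 0.08 (SE), with an adjusted p of 3.04e-05 (edgeR) and 0.00317 on the TPM scale (limma). Sdhb, the iron-sulfur subunit, differed by -0.37 ± 0.09 (adjusted p = 0.00356), and the membrane anchors Sdhd and Sdhc by -0.36 ± 0.08 (adjusted p = 0.00163) and -0.25 ± 0.08 (adjusted p = 0.0221), all by edgeR. Of these 3, only Sdhd was called on the TPM scale (limma, adjusted p = 0.0453), and without replicate 5 Sdhb was as well (limma, adjusted p = 0.012). The ratio of Sdha to Sdhc TPM within a library, formed after these values were seen, was 1.08 ± 0.06 in peritumoral tissue and 0.912 ± 0.067 in tumors, and no tumor, at 0.993 or less, reached the lowest peritumoral sample, at 1.01.

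In complex I, all 6 core subunits among the members fell on normalized counts, with log2 fold changes from -0.34 for Ndufv1, which binds NADH, to -0.19 for Ndufs3. Ndufs1 and Ndufv2, which both carry iron-sulfur clusters, differed by -0.33 ± 0.10 and -0.24 ± 0.08, and Ndufs7 by -0.30 ± 0.09. On the TPM scale only Ndufs8 of the 6 was called. Without replicate 5 all of them but Ndufs3 (limma, adjusted p = 0.209) were called there. The adjusted p by limma was then 0.000568 for Ndufs1, 0.0344 for Ndufs7, 0.00979 for Ndufs8, 0.0333 for Ndufv1 and 0.00148 for Ndufv2. Ndufs8 (chr19:3908863-3912774), another iron-sulfur subunit, was at 43.0, 41.7 and 42.3 normalized CPM in nonDEN-L-CD livers, at 41.9, 38.4, 41.0 and 45.2 in those of nonDEN-L-WD and at 44.6, 44.5, 41.7 and 43.8 in those of DEN-L-CD. Peritumoral samples ran from 33.6 through a median of 36.25 to 41.7, and tumors from 28.1 through 30.0 to 31.9. The 6 tumors lay below every other library. Its log2 fold change was -0.28 ± 0.05, with an adjusted p of 6.78e-05 by edgeR and 0.0128 by limma on the TPM scale.

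Ndufb6 (chr4:40270591-40279421) had the lowest value of complex I, at -0.43 ± 0.09 (edgeR, adjusted p = 0.000542), from 31.8 ± 4.9 (SD, n = 8) to 23.6 ± 2.4 (n = 6) normalized CPM. It is an accessory subunit in the membrane arm. Peritumoral samples ran from 25.6 through 30.3 to 40.8 and tumors from 21.3 through 22.7 to 27.98, so 1 tumor lay within the peritumoral range. It was at 42.3, 37.8 and 33.0 in nonDEN-L-CD livers, at 37.0, 36.4, 38.8 and 37.1 in those of nonDEN-L-WD and at 37.0, 38.7, 33.0 and 39.2 in those of DEN-L-CD, above all tumors. Of its 50-base words, 31.6% are shared with Smim27, so its counts are less certain too. Another accessory subunit, Ndufa3 (chr7:3617373-3620327), was at 45.2, 41.95 and 39.8 in nonDEN-L-CD livers, at 38.4, 41.7, 43.4 and 45.6 in those of nonDEN-L-WD and at 42.1, 41.4, 37.3 and 44.3 in those of DEN-L-CD. It ran from 32.7 through 37.3 to 41.1 in peritumoral tissue and from 25.25 through 27.0 to 35.6 in tumors. Only tumor replicate 5 overlapped the peritumoral samples, and the next tumor was at 27.8. The log2 fold change was -0.39 ± 0.07 (edgeR, adjusted p = 0.00018), or -0.47 without replicate 5.

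Ndufs6 (chr13:73319838-73328542), whose protein binds zinc, was at 47.9, 44.9 and 47.25 in nonDEN-L-CD livers, at 46.7, 47.2, 47.9 and 45.6 in those of nonDEN-L-WD and at 50.03, 50.9, 50.4 and 45.5 in those of DEN-L-CD. Peritumoral samples ran from 39.6 through 41.95 to 48.1, and tumors from 34.6 through 35.6 to 41.4. Again replicate 5 was the only overlapping tumor, the others being at 36.15 or below. Ndufs6 differed by -0.24 ± 0.05 (edgeR, adjusted p = 0.000793) and was not called on the TPM scale (limma, adjusted p = 0.256). Without replicate 5 it was called lower there (limma, adjusted p = 0.0499).

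In complex III, Cyc1, the heme-carrying cytochrome c1, was lowest at -0.38 ± 0.09 (edgeR, adjusted p = 0.00173), and Uqcrfs1, the Rieske iron-sulfur protein, differed by -0.32 ± 0.09 (adjusted p = 0.00846). Neither was called on the TPM scale, where Uqcrc2, a core protein, and Uqcrb were, but without replicate 5 both were (limma, adjusted p = 0.0311 for Cyc1 and 0.0169 for Uqcrfs1). Uqcrb (chr13:66900617-66905378) was at 119, 111 and 118 normalized CPM in nonDEN-L-CD livers, at 112, 104, 121 and 124 in those of nonDEN-L-WD and at 135, 141, 123 and 121 in those of DEN-L-CD. It ran from 98.9 through 107 to 122 in peritumoral tissue and from 80.35 through 84.1 to 91.7 in tumors. All 6 tumors lay below every other library, with a log2 fold change of -0.33 ± 0.06 and an adjusted p of 7.66e-05 (edgeR) or 0.00719 on the TPM scale (limma). Of its 50-base words, 25.5% are shared with other genes, Gm16089 most of all, so its counts are less certain.

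**Figure D3:**
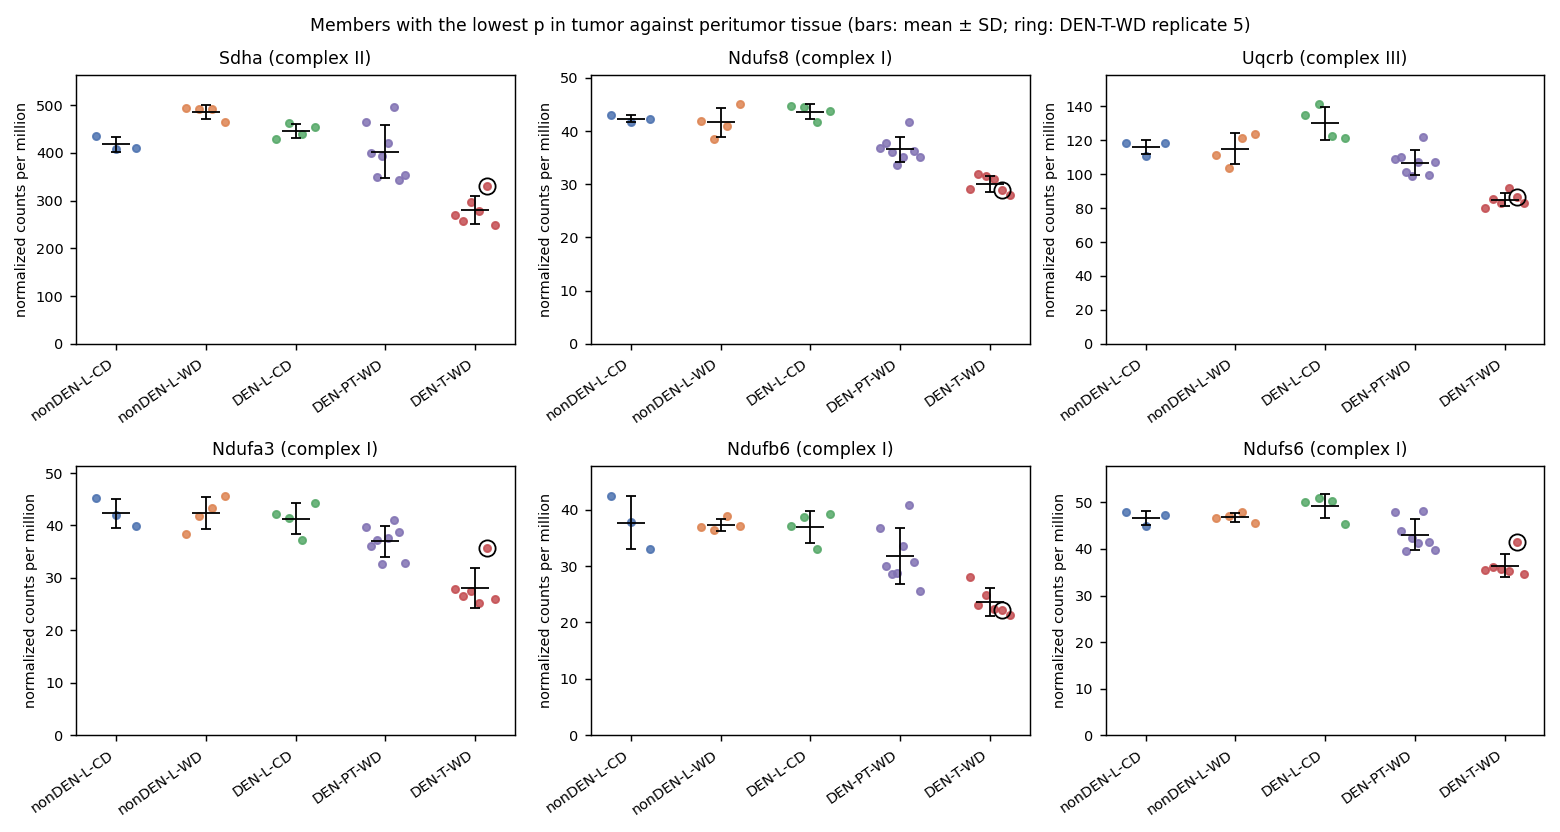
Normalized CPM (y axis, from 0) of the 6 members with the lowest p in tumors against peritumoral tissue, in each of the 25 libraries (points) by group (x axis), with the mean and SD as black bars and tumor replicate 5 ringed. Tumors lie below every peritumoral sample for Sdha, Ndufs8 and Uqcrb, as they do for 5.18% of all genes tested. Replicate 5 reaches into the peritumoral range for Ndufa3 and Ndufs6.

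Complex IV was led by Cox5b, at -0.37 ± 0.10 (edgeR, adjusted p = 0.00401), and Cox6c, at -0.34 ± 0.09 (adjusted p = 0.00468), and its 6 called members were all lost on the TPM scale, where Cox5b and Cox6c were called without replicate 5 (limma, adjusted p = 0.002 and 0.00804). The other 4, Cox6a1, Cox6b1, Cox7c and Cox8a, had log2 fold changes from -0.25 to -0.16. Tumor replicate 5 was above the 5 other tumors for all 10 members of complex IV and for 42 of all 55 members, against 30.4% of all genes tested. Outside complex IV, 9 members were not called: Ndufa1, Ndufa2, Ndufa7, Ndufa8, Ndufa13, Ndufc1, Ndufs4, Ndufv3 and Uqcrh, with log2 fold changes from -0.17 to 0.02, named here after their values were seen. Without replicate 5, Ndufa7, Ndufa8, Ndufc1 and Ndufv3 were called lower (edgeR, adjusted p = 0.0444, 0.0187, 0.0201 and 0.00544), and Ndufa11 was no longer called (adjusted p = 0.0561). Tumors lay below all peritumoral samples for 3 of the 55 members, close to the 5.18% of all genes for which they did. Without replicate 5 this held for 22 of the 55 members and for 8.57% of all genes.

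Next came the effect of diet alone. Between untreated livers on the western and the control diet, none of the 55 members was called (edgeR), where 23.2% of all genes were, and 3 had an unadjusted p under 0.05 against 35.8% of all genes (DESeq2 called 1). The median was 0.01, as for all genes. The 4 members of complex II had log2 fold changes from 0.10 to 0.22 and a summed level of 753 ± 84 TPM (n = 4) against 620 ± 18 (n = 3), none of them called. The lowest p belonged to Uqcrh, a hinge protein of complex III, at -0.22 ± 0.09 (edgeR, adjusted p = 0.0702), and the highest fold change to Ndufa10 at 0.30 ± 0.14 (adjusted p = 0.123). Ndufa10 was at 110 ± 7.1 normalized CPM on the western diet and 89.65 ± 4.7 on the control diet. It was 1 of 4 members with all western diet livers above all control diet livers (15.6% of all genes), and 2 members lay the other way (15.2%). Without nonDEN-L-WD replicate 4, 1 member was called.

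With DEN alone, on the control diet, 1 member was called, and the call depended on the processing. Ndufc2, a membrane subunit of complex I, was higher at 58.5 ± 3.9 normalized CPM in DEN-L-CD (n = 4) against 48.15 ± 3.4 in nonDEN-L-CD (n = 3), a log2 fold change of 0.28 ± 0.09 (edgeR, adjusted p = 0.0379), and the groups did not overlap. It was not called on the TPM scale (limma, adjusted p = 0.0681), without the filter on low counts (edgeR, adjusted p = 0.0637) or with the length correction (0.16, edgeR, adjusted p = 0.239), under which 3 members were lower and none higher, nor without any one of 5 of the 7 libraries compared (DEN-L-CD replicates 1 and 2 and all 3 of nonDEN-L-CD). Of all genes, 9.12% were higher. Groups did not overlap for 6 members that were higher and 5 that were lower (17.2% of all genes in each direction). The members' median was 0.04, against 0.02 for all genes. These comparisons share the nonDEN-L-CD livers.

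Peritumoral tissue was set against DEN-L-CD, for the diet in DEN-injected mice, and against nonDEN-L-WD, for DEN on the western diet. It also differs from both in lying beside tumors that were cut out. Against DEN-L-CD, 15 members were lower and none higher on normalized counts (edgeR), where 3.76% of all genes were lower, but the sign of the group's median depended on the scale: the members' median was -0.22 on normalized counts, 0.00 on library totals and 0.09 on log2(TPM + 1), and no member was called lower on either of these scales (0.73% and 0.602% of all genes were). The median of all genes moved with it, from 0.02 on normalized counts to 0.23 on the TPM scale, and the members' median less that of all genes was negative on both, at -0.23 and -0.14. Lowest on normalized counts were Cox7a2, at -0.38, Sdhd, at -0.36, and Cox7b, at -0.35, with TPM differences of -0.07, -0.07 and -0.01. Ndufs8 had the lowest adjusted p, 0.00494 (edgeR), at -0.26 on normalized counts but 0.05 on the TPM scale, and with Ndufc1 it was 1 of 2 members with all peritumoral samples below all livers (3.05% of all genes). Ndufa7, an accessory subunit of complex I, was called higher on the TPM scale, at 0.25 (limma, 38.5% of all genes were higher). Markers of other cell types moved with this comparison: summed TPM of 8 stellate cell or fibroblast markers was 238.8 to 458.9 in peritumoral tissue and 158.7 to 195.8 in DEN-L-CD livers, of 6 endothelial markers 127.8 to 163.5 and 96.4 to 109.3, and of the bile duct markers 73.9 to 324.6 and 40.0 to 66.0, with no overlap. As mean log2 CPM the bile duct markers overlapped, at 1.05 to 2.39 and 1.14 to 2.02. The stellate cell or fibroblast markers, at 4.58 to 5.21 and 3.945 to 4.295, and the endothelial markers, at 5.19 to 5.525 and 4.95 to 5.10, did not. Leukocyte markers, at 226 to 474.5 and 163.7 to 259.6 TPM, overlapped. Hepatocyte markers were lower as mean log2 CPM, at 11.64 to 11.95 against 12.18 to 12.27, but overlapped by summed TPM. No gene of these lists was at 0 in every library of either group, and their part in the result was not tested.

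Against nonDEN-L-WD, 15 members were again lower and none higher on normalized counts, where 4.87% of all genes were lower, with a median of -0.19 that was -0.02 on library totals and 0.03 on TPM. All genes had a median of 0.00 on normalized counts and 0.16 on the TPM scale, and the members' median less that of all genes was -0.20 and -0.12. On the TPM scale Ndufa7 alone was called, and higher (limma, 21.6% of all genes were higher). Ndufc1 was lowest at -0.47 ± 0.09 (edgeR, adjusted p = 0.00303) and Ndufa13, an accessory subunit also known as a cell death regulator, followed at -0.43 ± 0.08 (adjusted p = 0.00265), with TPM differences of -0.29 and -0.20, neither called (limma, adjusted p = 0.0675 and 0.127). Of the 50-base words of Ndufa13, 28.5% are shared with other genes, Tssk6 most of all, so its counts are less certain. All 8 peritumoral samples lay below all 4 livers for both, and for Ndufb9 and Ndufs3, so for 4 of the 55 members (2.92% of all genes). For both peritumoral comparisons the count moved by more than 1.5 times when single libraries were left out: against DEN-L-CD from 5 (DEN-L-CD replicate 1 or 2) through 9 (DEN-PT-WD replicate 3 or 4) to 29 (DEN-PT-WD replicate 6), and against nonDEN-L-WD from 4 (nonDEN-L-WD replicate 4) through 6 (nonDEN-L-WD replicate 1 or 3) and 9 (DEN-PT-WD replicate 2, 3 or 8) to 26 (DEN-PT-WD replicate 6). The nonDEN-L-WD livers were also below all peritumoral samples in summed TPM of stellate cell or fibroblast markers, at 145.0 to 237.0, of endothelial markers, at 82.25 to 127.5, and of bile duct markers, at 45.2 to 68.7, while their leukocyte markers, at 147.5 to 296.6, and their hepatocyte markers, at 11.73 to 12.41 as mean log2 CPM, overlapped with peritumoral tissue. As mean log2 CPM the stellate cell or fibroblast markers overlapped too, at 3.675 to 4.598 in these livers and 4.58 to 5.21 in peritumoral tissue. So did the endothelial markers, at 4.91 to 5.235 and 5.19 to 5.525, and the bile duct markers, at 0.946 to 1.615 and 1.05 to 2.39. The part of all these lists in the result was not tested.

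Tumors were also compared with the livers of untreated mice on the western diet, a comparison that shares its tumors and its livers with those above. On normalized counts 51 of the 55 members were lower and none higher (edgeR), where 23.1% of all genes were lower. Medians were -0.47 for complex I, -0.61 for complex II, -0.44 for complex III and -0.48 for complex IV, against 0.02 for all genes. On the TPM scale 7 members were lower (7.19% of all genes) and 2, Ndufa7 and Uqcrh, were higher (48.0% of all genes). The members' TPM median was -0.12, and less that of all genes, which was 0.26, it was -0.38. Sdha was again lowest, at -0.79 ± 0.09 (edgeR, adjusted p = 5.7e-07), a fold of 0.577, and -0.36 on TPM (limma, adjusted p = 0.00795). The next lowest on normalized counts were Ndufb9, at -0.71, Cyc1 and Ndufb2, each at -0.68, and Ndufb6 and Ndufs5, each at -0.66, and all 5 were also called lower on TPM. Ndufs5 shares 21.7% of its words with another gene, BC002163. Cox5b, the lowest of complex IV, at -0.63, was not called on TPM (limma, adjusted p = 0.0541), but was without replicate 5 (limma, adjusted p = 0.00152). All 6 tumors lay below all 4 livers for 36 members (15.5% of all genes), and without replicate 5 this held for 53 members (19.8%), while 54 were then called lower (24.7% of all genes), and 24 on the TPM scale with none higher (8.27% of all genes were lower). Tumors lay above these livers in summed TPM of bile duct markers, at 385 to 834 against 45.2 to 68.7, and of 5 red blood cell markers, at 2517 to 7450 against 1585 to 1852. Leukocyte markers, with means of 372 and 204 TPM, and stellate cell or fibroblast markers, with means of 261 and 190 TPM, overlapped. Without replicate 5 hepatocyte markers did not overlap either, at 117600 to 139400 TPM in the other tumors against 58110 to 75230 in these livers, nor did endothelial markers, at 140.2 to 147.8 against 82.25 to 127.5. As mean log2 CPM over all 6 tumors, bile duct markers overlapped, at 1.53 to 3.00 against 0.946 to 1.615 in these livers. So did red blood cell markers, at 6.94 to 8.38 against 6.78 to 7.055, and endothelial markers, at 5.01 to 5.35 against 4.91 to 5.235. Hepatocyte markers overlapped too, at 10.76 to 12.01 against 11.73 to 12.41. Stellate cell or fibroblast markers did not overlap on this measure, at 4.615 to 5.151 against 3.675 to 4.598. The part of these markers in the result was not tested.

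**Figure D4:**
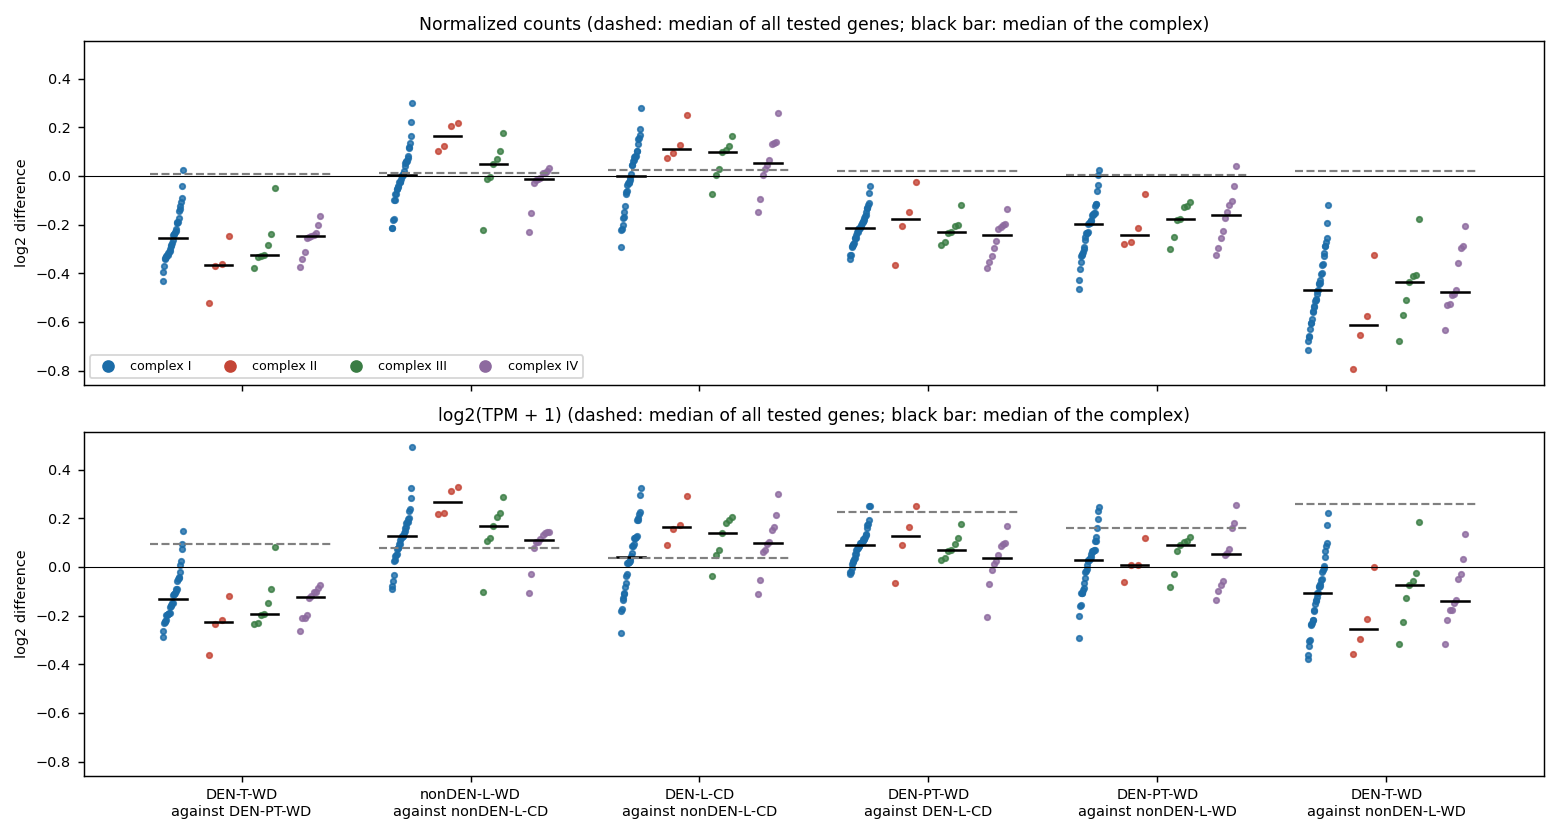
Log2 difference of each member (points, coloured by complex) in 6 comparisons (x axis) on normalized counts (upper panel) and on log2(TPM + 1) (lower panel), with the median of each complex as a black bar and the median of all tested genes as a dashed line. The medians of all 4 complexes lie below the dashed line in both tumor and both peritumoral comparisons and in both panels. In the peritumoral comparisons they lie below 0 in the upper panel and above 0 in the lower one, where the dashed line is higher too.

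Whether DEN and diet acted together was asked by an interaction, the effect of the western diet in DEN-injected mice (peritumoral tissue against DEN-L-CD) less that in untreated mice. None of the 55 members was called by edgeR, where 8.39% of all genes were; DESeq2 called 3, and 15 had an unadjusted p under 0.05 against 24.1% of all genes. On normalized counts the estimates were below 0 for all 55 members, with a median of -0.23, against 0.03 for all genes. On the TPM scale these medians were -0.04 and 0.15, and members below 0 were not counted. Sdhd had the lowest p, at -0.47 ± 0.15 (edgeR, adjusted p = 0.0565). Leaving out DEN-PT-WD replicate 6 gave 7 calls, and leaving out DEN-PT-WD replicate 1, nonDEN-L-WD replicate 2 or nonDEN-L-CD replicate 1 gave 1.

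Other mitochondrial genes place these values. In tumors against peritumoral tissue, 10 of the 13 mitochondrial-encoded subunits were lower and none higher on normalized counts, with a median of -0.58, and 8 were lower on the TPM scale, where 18.1% and 8.92% of all genes were lower. Without replicate 5, 12 were lower on normalized counts, with a median of -0.71, and 10 on TPM, where 20.4% and 11.0% of all genes were lower. The lowest of them was mt-Cytb, the cytochrome b of complex III, at -0.70 ± 0.13 (edgeR, adjusted p = 0.000153). Within a library their summed TPM was 13.2 ± 1.3 times that of the members in peritumoral tissue and 11.02 ± 1.8 times in tumors, or 10.5 ± 1.4 without replicate 5, and the groups overlapped. ATP synthase subunits had 9 of 15 lower (median -0.22), against 18.1% of all genes, but 1 of 15 on the TPM scale, against 8.92%, led by Atp5h, a subunit of its stalk, at -0.36 ± 0.08. With replicate 5 left out, 13 were lower (median -0.30) and 5 on TPM. The ratio of member TPM to ATP synthase TPM was 2.39 ± 0.06 in peritumoral tissue and 2.35 ± 0.02 in tumors.

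Some genes that feed electrons into the chain were lower as well. Of 13 citrate cycle enzymes 8 were lower (4 on the TPM scale), or 10 (and 7) without replicate 5, where 18.1% of all genes were lower on normalized counts and 8.92% on TPM. They were led by Idh3a, a subunit of the isocitrate dehydrogenase that yields NADH, at -0.51 ± 0.06 (edgeR, adjusted p = 1.66e-06), and followed by Sucla2, Suclg2 and Dld. Among 9 electron carriers 4 were lower (3 on the TPM scale), or 7 (and 4) without replicate 5, with Prodh, a proline oxidase, at -1.55 ± 0.18 and Etfdh, which passes electrons from fatty acid oxidation to coenzyme Q, at -0.73 ± 0.10. Factors that assemble the complexes had 15 of 42 lower and 1 higher on normalized counts, or 19 and 1 without replicate 5. On the TPM scale 4 of the 42 were lower and 2 higher, close to the 8.92% of all genes that were lower there, and 6 were lower without replicate 5, where 11.0% of all genes were. Their lowest p values belonged to Ndufaf1, Ndufaf4, Ecsit and Tmem126b, all of complex I assembly, at -0.42, -0.55, -0.55 and -0.33. Of 12 regulators of chain genes 3 were higher and 2 lower, where 19.5% of all genes were higher and 18.1% lower, and 3 were higher (20.9% of all genes) and none lower without replicate 5. Nrf1, whose motif was searched above, was higher, at 0.23 ± 0.08 (edgeR, adjusted p = 0.0235) and 0.39 on the TPM scale, as was Gabpb1, the partner of GABPA, at 0.22 ± 0.06. Gabpa itself was lower, at -0.14 ± 0.05, and called neither on the TPM scale nor without replicate 5 (edgeR, adjusted p = 0.0818).

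Other mitochondrial lists were also counted. Of 12 genes of the outer membrane and of protein import, 1 was higher and 1 lower, namely Tomm20, a receptor of the import pore, at 0.19 ± 0.05, and Timm44 at -0.19 ± 0.06, and 3 were higher on the TPM scale, while 1 was higher and 3 were lower on normalized counts without replicate 5. Mitochondrial ribosomal proteins had 21 of 78 lower, or 26.9%, and 2 higher on normalized counts, where 18.1% of all genes were lower and 19.5% higher, and 3 lower and 11 higher on TPM, where 8.92% of all genes were lower and 27.0% higher. Without replicate 5 they had 25 lower and 5 higher on normalized counts and 7 lower and 8 higher on TPM. Cytosolic ribosomal proteins went the other way on both scales, with 68 of 77 higher and none lower on normalized counts (19.5% of all genes were higher) and 71 higher on TPM, or 71 and 72 without replicate 5. The summed TPM of the members was 0.447 ± 0.070 of that of the cytosolic ribosomal proteins in peritumoral tissue and 0.298 ± 0.057 in tumors, and without replicate 5 the highest tumor, at 0.316, was below the lowest peritumoral sample, at 0.361. This ratio was 0.445 ± 0.014 in untreated livers on the control diet, 0.546 ± 0.028 in those on the western diet and 0.493 ± 0.016 in DEN-L-CD livers.

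**Figure D5:**
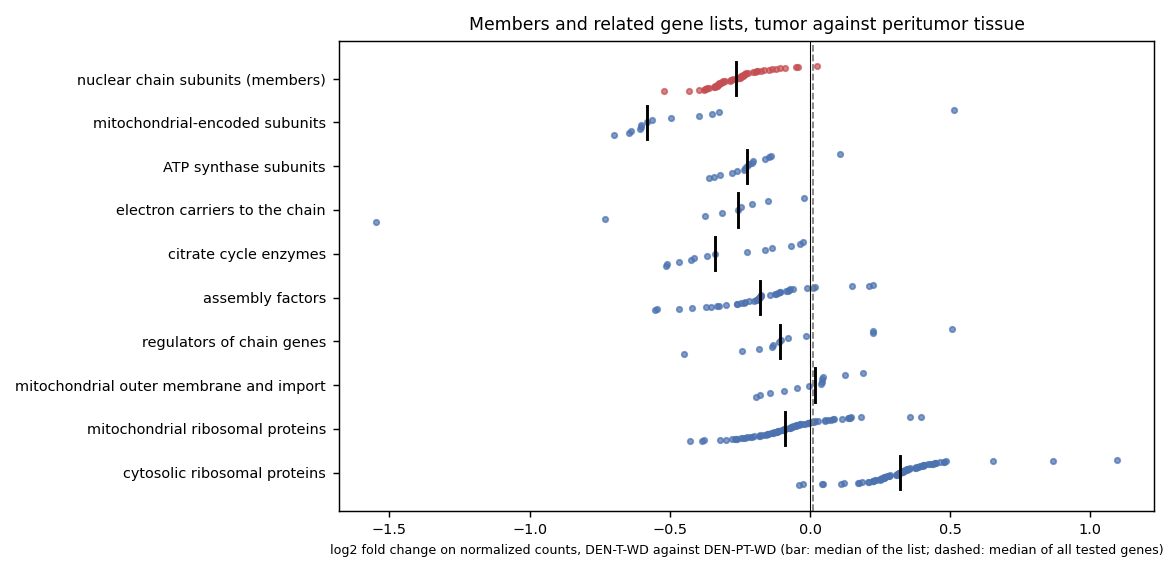
Log2 fold change on normalized counts (x axis) of each gene (points) of the members and of 9 related lists (y axis) in tumors against peritumoral tissue, with the median of each list as a black bar and the median of all tested genes as a dashed line. The members' bar is at -0.27, that of the mitochondrial-encoded subunits at -0.58, and that of the cytosolic ribosomal proteins at 0.32.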

How the data were processed

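Expected counts (the estimated number of reads per gene), TPM and FPKM were deposited by the authors for each of 25 libraries. Per the study's methods and the submitters' processing notes, polyA-selected, single-end reads were checked with FastQC, aligned with STAR to GRCm38 and counted with RSEM; the versions of STAR and RSEM, and whether the counting used strand, are not given in the sources used here. The libraries held 21530083 to 38074411 expected counts, which differed between all replicates by more than counting noise.

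Expected counts were rounded, normalized by TMM and tested in edgeR 4.0.16 (R 4.3.3) by its quasi-likelihood test in 1 fit of the 5 groups, after filterByExpr with a minimum count of 10, and p-values were adjusted by Benjamini-Hochberg over 15625 genes. A call is an adjusted p of at most 0.05. Normalized CPM are counts scaled by TMM. TPM were summed per complex, FPKM served as an alternative, and log2(TPM + 1), with a pseudocount of 1, was tested by limma 3.58.1. DESeq2 1.42.0, another filter, size factors, a length correction, a replicate block and fits without each library were the other alternatives, and library totals were added after the data were seen. Tables and figures were made with Python 3.11.15, NumPy 2.4.6, SciPy 1.17.1, pandas 2.3.3 and Matplotlib 3.10.9, and the tests were tried on simulated data.

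The members, the related lists and the marker lists were chosen with earlier results of these data known. Named in each comparison are the members with the lowest and highest log2 fold changes among those called in a complex (up to 3 each). In tumors against peritumoral tissue, core subunits, the Sdh genes, Cyc1 and Uqcrfs1 are named as well. Values in every library are given for the 6 members with the lowest p in tumors against peritumoral tissue, and up to 4 genes with the lowest p are named from other lists. The labels do not say which mouse each sample came from, so p-values measure the spread between these samples. Shared sequence is the share of a gene's 50-base words found in other genes, and 5 members had at least 20% shared: Ndufa13, Ndufb6, Ndufs5, Uqcrb and Cox7c.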

Additional observations from a re-analysis of the deposited data

Results flagged for a closer look

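Single libraries that stood apart from the rest of their group were looked for in 60 sets of values, by the gap between the highest or lowest library and its neighbour, and chance alone picks out about 1 in 20 such sets. Tumor replicate 5 was picked out 6 times, each time as the highest tumor. Its summed TPM was 5440 for complex I (3689 to 4194 in the other tumors), 833.2 for complex II (580.5 to 664.4), 4056 for complex IV (2427 to 2901) and 168300 for the mitochondrial-encoded subunits (79550 to 101800). Its normalized CPM was 35.61 for Ndufa3 (25.25 to 27.81) and 41.42 for Ndufs6 (34.57 to 36.15).

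nonDEN-L-WD replicate 4 was the lowest of its group, at 628.9 summed TPM of complex II (782.1 to 813.6 in the others) and at 464.2 normalized CPM of Sdha (492.3 to 493.7). DEN-L-CD replicate 4 was the lowest of its group for Ndufs6, at 45.47 normalized CPM (50.03 to 50.92 in the others).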

How the results depend on the processing

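Tumor calls kept their direction on counts, but their number depended on the scale. Of all 55 members, 42 were called lower in tumors than in peritumoral tissue, against 18 on library totals, 7 on log2(TPM + 1) and 32 to 49 without single libraries. Without tumor replicate 5 the TPM scale gave 31, and against nonDEN-L-WD 24, a fit added after the data were seen. Against nonDEN-L-WD the 51 became 24 and 9 (2 higher, 7 lower), and 49 to 54. The 15 of peritumoral tissue against DEN-L-CD became 0 on library totals, 1, now higher, on TPM, 23 with DESeq2, 9 with the length correction, and 5 to 29 without single libraries. The 15 against nonDEN-L-WD became 0, 1, now higher, and 4 to 26. The single call of DEN-L-CD against nonDEN-L-CD became 0 on library totals, on TPM and without the filter, 3 with only these groups fitted, 3, all lower, with the length correction, and 0 to 1 without single libraries. Diet alone gave 1 with DESeq2 and 1 with only its groups, and 0 to 1 without single libraries, and the interaction 3 with DESeq2 and 0 to 7. The cause of these changes was not tested.

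With the replicate block, 47 members were lower in tumors than in peritumoral tissue, 53 than in nonDEN-L-WD, and in peritumoral tissue 8 than in DEN-L-CD and 7 than in nonDEN-L-WD. Block and length correction together gave 1 for DEN-L-CD as the liver compared and 4, all lower, for DEN-L-CD against nonDEN-L-CD. Libraries of the same number did not deviate together in every pair (correlations from -0.23 to 0.39), so the numbers were not taken to pair them. No share of all genes was counted for the block, the length correction, DESeq2, the changed filter or the fits of only the groups compared. Nor was it for libraries left out other than tumor replicate 5. Those counts show how the calls moved and do not set the members apart from all genes.

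Of the members called lower on normalized counts, 9 in peritumoral tissue against DEN-L-CD, 2 against nonDEN-L-WD and 8 in tumors against nonDEN-L-WD were above 0 on the TPM scale. Those named by the rule were in peritumoral tissue against DEN-L-CD Ndufa13 0.052, Ndufs4 0.10, Ndufs6 0.12, Uqcrb 0.028 and Uqcrh 0.038, against nonDEN-L-WD Ndufs8 0.043 and Sdha 0.0069, and in tumors against nonDEN-L-WD Ndufb7 0.10, Ndufc2 0.17, Ndufs4 0.087, Sdhc 0.00080 and Cox4i1 0.031. None of these was called on that scale, and each lay below the TPM median of all genes, which was 0.23, 0.16 and 0.26 in these comparisons.

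Levels taken as mean log2 CPM in place of summed TPM reversed the sign for complexes I to IV in peritumoral tissue, from 0.080, 0.12, 0.070 and 0.015 to -0.21, -0.20, -0.23 and -0.26 against DEN-L-CD and from 0.026, 0.023, 0.079 and 0.033 to -0.22, -0.22, -0.19 and -0.17 against nonDEN-L-WD. They moved from -0.11, -0.21, -0.050 and -0.12 to -0.47, -0.59, -0.46 and -0.44 in tumors against nonDEN-L-WD (-0.19 for complex III on summed FPKM), and complex IV turned from 0.092 to -0.038 with diet alone. Counting Ndufa4 in complex IV left the medians of complexes I and IV within the spread. The lowest count of any member in any library was 333.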
